A study of Mus musculus with 14 samples.

Results

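The genes described here are 9 complement genes that belong to 1 innate defence system of blood and tissue: C1qa, C1qb, C1qc, C3, C4b, C3ar1, C5ar1, Serping1 and Cfb. They were chosen by name, and all 9 were found among the 31507 genes of the deposited expression table. The samples were brain tissue of mice in 3 groups, and the sources used here give no strain, age or sex. Acupuncture samples (n = 2) came from mice with an intracerebral haemorrhage (ICH) treated at the scalp point GV20 on 7 days in a row. ICH samples (n = 2) are labelled autologous blood, that is, the haemorrhage was modelled with the animal's own blood, and sham samples (n = 3) a sham operation. The acupuncture and ICH groups therefore share the haemorrhage, and no group received acupuncture without it. Each sample gave an m6A immunoprecipitate, in which an antibody pulls down RNA fragments carrying N6-methyladenosine, and an input library of poly(A) RNA, whose gene levels are given in FPKM (fragments per kilobase of transcript, scaled to library size). The labels did not say that the samples of a group came from separate animals, so each p-value measures only the spread between these samples, which may be technical.

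Complement works as a cascade of proteases. C1q, built from the A, B and C chains that C1qa, C1qb and C1qc encode, recognises antibody or altered cell surfaces, and its partner proteases cleave C4 and C2 into an enzyme that splits C3. Factor B, the product of Cfb, forms the corresponding enzyme of the alternative pathway and so amplifies C3 cleavage. C3b marks targets for phagocytes, while the released peptides C3a and C5a act through the receptors encoded by C3ar1 and C5ar1. Serping1 encodes the C1 inhibitor, which blocks the C1 proteases. In the brain, microglia are the main source of C1q, C1q and C3 take part in the removal of synapses, and complement activation around a haematoma has been described in rodents.

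All 9 genes lie on the minus strand of their chromosomes. C1qb, C1qc and C1qa are neighbours on chromosome 4, and C4b and Cfb lie near each other on chromosome 17. The RefSeq promoter table (GRCm38.p6, 250 bases before to 50 after the annotated start) held 5 of the 9 genes, C1qb, C1qc, C3, C3ar1 and C5ar1. Only these 5 windows could be shown, while the RNA of all 9 genes was higher in both haemorrhage groups than in sham. They are written 5′ to 3′ on the gene's strand, at chr4:136886151-136886450 for C1qb, chr4:136892865-136893164 for C1qc, chr17:57228087-57228386 for C3, chr6:122856108-122856407 for C3ar1 and chr7:16259289-16259588 for C5ar1. Capitals mark motif letters found by search.
C1qb: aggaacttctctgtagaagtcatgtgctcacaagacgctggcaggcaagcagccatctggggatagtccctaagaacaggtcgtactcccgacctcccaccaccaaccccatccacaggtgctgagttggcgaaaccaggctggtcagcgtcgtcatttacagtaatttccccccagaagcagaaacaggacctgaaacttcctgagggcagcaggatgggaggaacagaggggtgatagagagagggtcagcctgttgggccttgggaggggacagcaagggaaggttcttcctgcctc
C1qc: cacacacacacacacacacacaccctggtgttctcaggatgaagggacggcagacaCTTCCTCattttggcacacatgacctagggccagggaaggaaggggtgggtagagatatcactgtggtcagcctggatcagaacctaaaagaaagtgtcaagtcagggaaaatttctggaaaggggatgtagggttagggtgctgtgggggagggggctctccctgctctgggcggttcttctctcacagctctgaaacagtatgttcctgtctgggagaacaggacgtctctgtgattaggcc
C3: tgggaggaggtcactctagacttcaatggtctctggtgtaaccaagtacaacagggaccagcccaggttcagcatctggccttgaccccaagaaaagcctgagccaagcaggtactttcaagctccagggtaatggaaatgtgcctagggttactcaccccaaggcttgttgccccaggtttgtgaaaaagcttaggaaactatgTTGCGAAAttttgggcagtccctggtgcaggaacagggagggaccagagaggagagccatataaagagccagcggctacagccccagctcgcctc
C3ar1: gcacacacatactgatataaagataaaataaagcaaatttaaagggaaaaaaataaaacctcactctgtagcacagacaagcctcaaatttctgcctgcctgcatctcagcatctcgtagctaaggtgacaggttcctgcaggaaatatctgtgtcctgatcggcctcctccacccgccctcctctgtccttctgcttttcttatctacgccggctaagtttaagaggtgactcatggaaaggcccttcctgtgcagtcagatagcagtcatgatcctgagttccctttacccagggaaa
C5ar1: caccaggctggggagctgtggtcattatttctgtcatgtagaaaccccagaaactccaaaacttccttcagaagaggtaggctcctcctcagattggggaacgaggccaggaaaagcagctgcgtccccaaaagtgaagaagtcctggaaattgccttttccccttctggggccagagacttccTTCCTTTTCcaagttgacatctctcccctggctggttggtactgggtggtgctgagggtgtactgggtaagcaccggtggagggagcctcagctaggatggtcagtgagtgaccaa

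Searching both strands for 5 short motifs gave 1 match in each of 3 windows, and no matches overlapped. The PU.1 letters GAGGAAG stood in C1qc on the opposite strand, at position -194 from the start, and in 13.6% of all 32851 promoters in the table. The C/EBP letters TTGCNNAA stood in C3 at position -45, and in 10.8% of promoters. The interferon response letters GAAANNGAA stood in C5ar1 on the opposite strand at position -66, and in 8.56% of promoters. Neither the GAS letters TTCNNNGAA (8.30% of promoters) nor the kappaB letters GGGANNTTC (3.94%) stood in any of the 5 windows. These matches describe letters in these windows only.

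The tissue label held in every input library, where the summed level of 7 neuronal markers was 649 to 694 FPKM in acupuncture, 720 to 976 FPKM in ICH and 758 to 828 FPKM in sham. Read depth is unknown, and the summed FPKM per library lay between 179810 and 198472. ICH replicate 2 stood apart: across genes, ICH replicate 1 correlated with it at Pearson's r = 0.942 but with the acupuncture libraries at 0.975 and 0.969. Acupuncture replicate 2 had a summed choroid plexus marker level (5 genes) of 2.09 FPKM, against 342 FPKM in acupuncture replicate 1, 336 and 352 FPKM in ICH and 452 to 486 FPKM in sham. The 13666 genes whose mean FPKM reached 1 were tested in 1 limma fit of the 7 input libraries on log2(FPKM + 1), two-sided, and a gene was called when its adjusted p (Benjamini-Hochberg) was under 0.05. Fold changes are on this log2(FPKM + 1) scale, which understates the change of genes with low levels.

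Every one of the 9 genes was higher in both haemorrhage groups than in sham, with no overlap between the libraries of a haemorrhage group and those of sham. Of all tested genes, 31.8% were higher without overlap in acupuncture and 21.5% in ICH. In acupuncture against sham all 9 were called higher, with a median log2 fold change of 2.70, beside 0.04 over all tested genes, of which 8.47% were called higher and 3.22% lower. In ICH against sham all 9 were called higher, with a median of 2.35, beside -0.01 over all tested genes, of which 4.95% were called higher and 0.724% lower. These comparisons share the sham libraries. The 5 genes C1qa, C1qb, C1qc, C4b and Serping1 had a sham mean of at least 1 FPKM. C3, C3ar1, C5ar1 and Cfb passed the filter only through the haemorrhage groups, so that they differed follows in part from the filter. Without acupuncture replicate 2 the count in acupuncture against sham was 9, and without ICH replicate 2 the count in ICH against sham was 9.

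**Figure D1:**
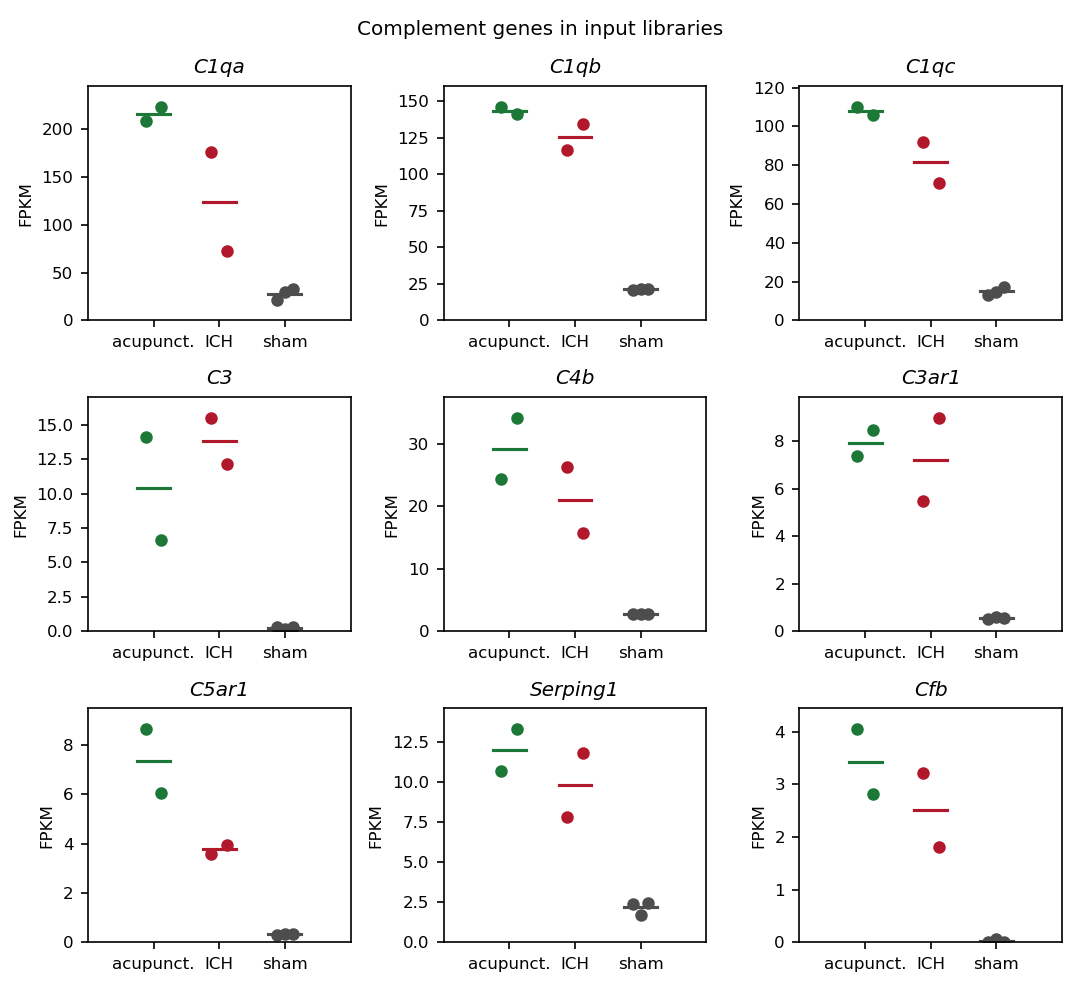
FPKM of the 9 complement genes in each input library (points) with the group mean (line), for acupuncture (n = 2), ICH (n = 2) and sham (n = 3); each panel has its own axis starting at 0. All haemorrhage libraries lie above all sham libraries in every panel, and the ICH libraries of C1qa (176 and 72.5 FPKM) lie furthest apart.

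The C1q chains were the most abundant of the 9 in every group. C1qb had 146 and 141 FPKM in acupuncture, 117 and 135 FPKM in ICH, and 20.8, 21.3 and 21.7 FPKM in sham. Its libraries agreed closely within each group, and the 3 groups did not overlap. The log2 fold change was 2.70 ± 0.10 (SE) in acupuncture against sham (limma adjusted p = 3.33e-05) and 2.50 ± 0.10 in ICH against sham (limma adjusted p = 7.23e-05).

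C1qc had 109.9 and 106 FPKM in acupuncture, 92.0 and 70.9 FPKM in ICH, and 13.3, 14.9 and 17.3 FPKM in sham. The order of the groups was that of C1qb, again without overlap. C1qc changed by 2.76 ± 0.15 (SE, log2) in acupuncture against sham (limma adjusted p = 0.000109) and 2.35 ± 0.15 in ICH against sham (limma adjusted p = 0.000407). C1qa had 209 and 223 FPKM in acupuncture, 176 and 72.5 FPKM in ICH, and 21.1, 29.4 and 33.3 FPKM in sham. ICH replicate 2 had less than the other ICH library but more than any sham library. The log2 fold change of C1qa was 2.93 ± 0.36 (SE) in acupuncture against sham (limma adjusted p = 0.00299) and 2.00 ± 0.36 in ICH against sham (limma adjusted p = 0.0232). The ICH call of C1qa was lost without any 1 of the sham libraries (limma adjusted p = 0.0853, 0.0748 and 0.0588 without sham replicates 1, 2 and 3) or either acupuncture library (0.0548 and 0.0543 without acupuncture replicates 1 and 2). Without ICH replicate 2 its log2 fold change was 2.64 (limma adjusted p = 0.0033).

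The 3 chains are assembled in equal number in the C1q protein, and the mix of their RNA levels differed most in ICH replicate 2. The ratio of C1qa to C1qb was 1.43 and 1.58 in acupuncture, 1.51 and 0.539 in ICH, and 1.02, 1.38 and 1.53 in sham. ICH replicate 2 was thus the only library with less C1qa than C1qb. The share of C1qc in the summed C1q level stayed between 22.5% and 25.5% in all 7 libraries. The summed C1q level was 464 and 469.9 FPKM in acupuncture, 385 and 278 FPKM in ICH, and 55.2, 65.6 and 72.3 FPKM in sham.

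The summed level of 12 microglial markers was also higher after haemorrhage, at 274 to 322 FPKM in acupuncture and 278 to 330 FPKM in ICH, against 110.5 to 120.5 FPKM in sham, and none of these markers was at 0 in a group. The markers did not move as a whole. In acupuncture against sham 8 of the 12 were called higher and 2, P2ry12 and Siglech, lower, beside 8.47% and 3.22% of all tested genes. In ICH against sham 8 were called higher and none lower, beside 4.95% and 0.724%. Divided by the summed microglial level, C1q was 1.44 and 1.72 in acupuncture, 1.17 and 1.0 in ICH, and 0.500, 0.550 and 0.600 in sham. The 3 groups did not overlap in this ratio, so C1q was higher relative to this sum as well, though not relative to each marker by that measure. The summed level of 10 monocyte and macrophage markers was 248 to 276 FPKM in acupuncture and 125 to 194 FPKM in ICH, against 7.71 to 10.2 FPKM in sham. Lyz2 made up most of that sum, with 232 and 222 FPKM in acupuncture, 107 and 178 FPKM in ICH, and 6.4 to 8.2 FPKM in sham. Of 7 neutrophil markers the sum was 48.3 to 76.4 FPKM in acupuncture, with Mpo at 0. It was 15.0 to 15.3 FPKM in ICH, with Ly6g and Mpo at 0, and 8.02 to 11.1 FPKM in sham, with Ly6g at 0. S100a8 and S100a9 made up most of the neutrophil sum. The sum of 8 astrocyte markers was 742 to 918 FPKM in acupuncture and 793 to 838 FPKM in ICH, against 402 to 435 FPKM in sham, mostly through Gfap. For 5 fibroblast markers it was 12.6 to 15.2 FPKM in acupuncture and 12.8 to 16.9 FPKM in ICH, against 3.97 to 5.88 FPKM in sham. For 6 endothelial markers it was 65.1 to 68.4 FPKM in acupuncture and 39.5 to 49.0 FPKM in ICH, against 26.9 to 34.9 FPKM in sham. Much of the endothelial sum was Cldn5, with means of 46.5 FPKM in acupuncture, 23.4 FPKM in ICH and 17.7 FPKM in sham. In acupuncture against ICH 1 of the 6, Cldn5, was higher without overlap, and 3, Flt1, Kdr and Tek, were lower. None of the astrocyte, fibroblast and endothelial markers was at 0 in a group. The part of these cell types in the complement levels was not tested, and in bulk tissue more cells of a type and more RNA per cell cannot be told apart.

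**Figure D2:**
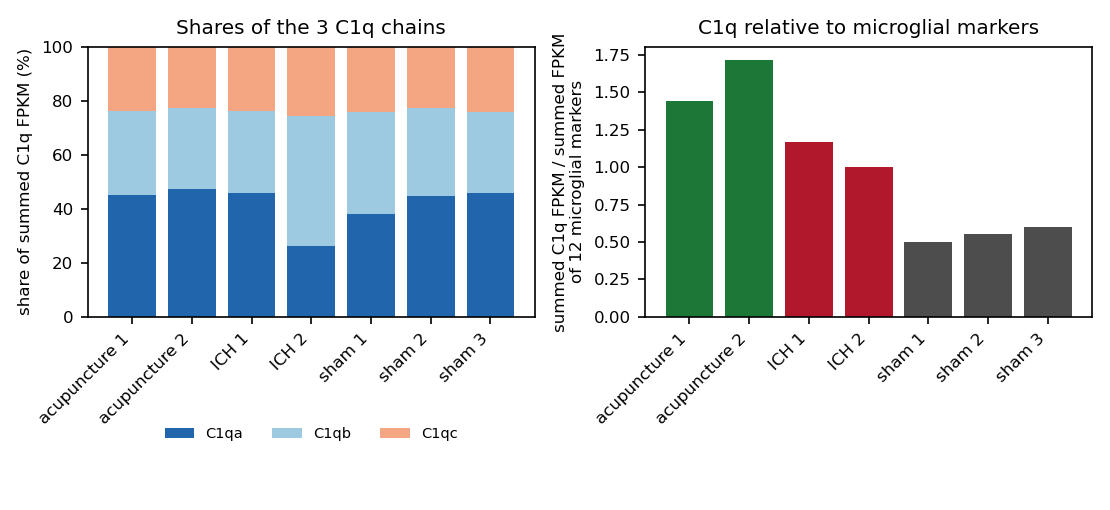
Left, the share of C1qa, C1qb and C1qc in the summed C1q FPKM (%) of each input library; right, the summed C1q FPKM divided by the summed FPKM of 12 microglial markers. ICH replicate 2 has a C1qa share of 26.1%, against 38.2% to 47.5% in the other 6 libraries, and the ratio is 1.0 to 1.72 in the haemorrhage libraries and 0.500 to 0.600 in sham.

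C3, the component on which all activation routes meet, was barely detected in sham. It had 14.1 and 6.66 FPKM in acupuncture, 15.5 and 12.1 FPKM in ICH, and 0.313, 0.176 and 0.333 FPKM in sham. The acupuncture libraries lay further apart than those of ICH, and the lower one, replicate 2, was the library with the low choroid plexus sum; the part of that difference in the C3 level was not tested. The log2 fold change of C3 was 3.08 ± 0.27 (SE) in acupuncture against sham (limma adjusted p = 0.000723) and 3.53 ± 0.27 in ICH against sham (limma adjusted p = 0.000816). With a pseudocount of 0.1 in place of 1 the change was 4.74 in acupuncture and 5.23 in ICH on the log2 scale.

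C4b, the C4 gene from which the classical and lectin pathways draw their first cleaved component, had 24.3 and 34.0 FPKM in acupuncture, 26.2 and 15.8 FPKM in ICH, and 2.73, 2.76 and 2.74 FPKM in sham. The 2 haemorrhage groups overlapped, while the 3 sham libraries were almost equal. C4b changed by 2.99 ± 0.22 (SE, log2) in acupuncture against sham (limma adjusted p = 0.000366) and 2.52 ± 0.22 in ICH against sham (limma adjusted p = 0.00126). C4b has a near-identical neighbour, C4a, and how the authors' counting split reads between them is not stated in the labels or file headers, so the C4b level is uncertain to that extent.

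Cfb, which encodes factor B, had 4.04 and 2.81 FPKM in acupuncture and 3.21 and 1.80 FPKM in ICH. It was listed at 0 in sham replicates 1 and 3 and at 0.064 FPKM in sham replicate 2, so no fold of its levels is given. On the log2(FPKM + 1) scale Cfb was higher by 2.10 ± 0.20 (SE) in acupuncture than in sham (limma adjusted p = 0.00107) and by 1.75 ± 0.20 in ICH than in sham (limma adjusted p = 0.00368). These differences depend on the pseudocount, and with 0.1 they were 4.88 in acupuncture and 4.41 in ICH. C2 lies just upstream of the start of Cfb on the same strand, and another annotated gene overlaps it on the same strand, so its level can also depend on how reads were assigned. Albumin (Alb), a hepatocyte marker, was listed at 0 in all acupuncture and ICH libraries, and the sum of 4 hepatocyte markers was 0.626 to 1.14 FPKM in acupuncture, 1.17 to 2.85 FPKM in ICH and 0.684 to 2.25 FPKM in sham.

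Both anaphylatoxin receptors, which in mice are found on microglia and infiltrating myeloid cells, stood under 1 FPKM in sham and above it in every haemorrhage library. The C3a receptor gene C3ar1 had 7.39 and 8.48 FPKM in acupuncture, 5.48 and 8.95 FPKM in ICH, and 0.525, 0.609 and 0.556 FPKM in sham. Its haemorrhage groups overlapped. The log2 fold change of C3ar1 was 2.51 ± 0.18 (SE) in acupuncture against sham (limma adjusted p = 0.000319) and 2.36 ± 0.18 in ICH against sham (limma adjusted p = 0.000786).

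The C5a receptor gene C5ar1 had 8.63 and 6.07 FPKM in acupuncture, 3.59 and 3.97 FPKM in ICH, and 0.297, 0.336 and 0.343 FPKM in sham. Here both acupuncture libraries lay above both ICH libraries. C5ar1 changed by 2.64 ± 0.14 (SE, log2) in acupuncture against sham (limma adjusted p = 0.000106) and 1.85 ± 0.14 in ICH against sham (limma adjusted p = 0.000816). With a pseudocount of 0.1 the change of C5ar1 was 4.11 in acupuncture and 3.19 in ICH on the log2 scale.

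Serping1, the gene of the C1 inhibitor, had 10.7 and 13.3 FPKM in acupuncture, 7.81 and 11.8 FPKM in ICH, and 2.42, 1.71 and 2.47 FPKM in sham. The inhibitor of C1 was thus higher in the same libraries as C1q itself, with overlap between the haemorrhage groups. Serping1 changed by 2.02 ± 0.20 (SE, log2) in acupuncture against sham (limma adjusted p = 0.00108) and 1.74 ± 0.20 in ICH against sham (limma adjusted p = 0.00321).

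**Figure D3:**
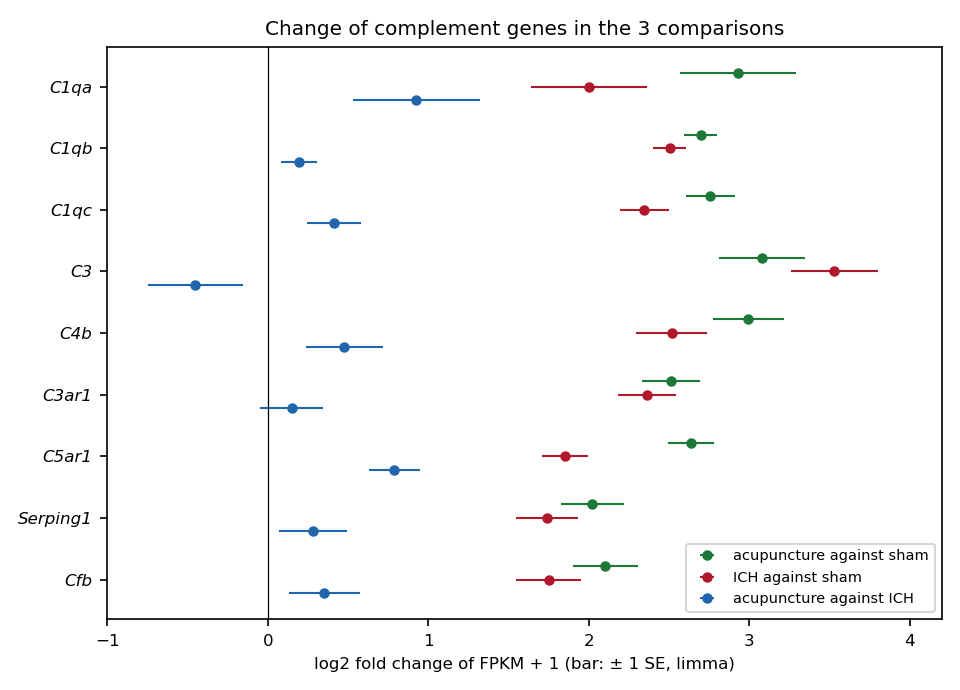
Log2 fold change of FPKM + 1 (x axis) with ± 1 SE from the limma fit for each complement gene in acupuncture against sham, ICH against sham and acupuncture against ICH. Changes against sham lie between 1.74 and 3.53, while those of acupuncture against ICH lie between -0.45 and 0.93.

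In acupuncture against ICH none of the 9 genes was called, beside 0.0366% of all tested genes called higher and 0% lower. At an unadjusted p under 0.05, 2 of the 9, C5ar1 and C1qc, were higher, beside 11.9% of all tested genes. The groups did not overlap for 4 of the 9, C1qa, C1qb, C1qc and C5ar1, all higher in acupuncture, beside 28.8% of all tested genes that were higher without overlap. The median log2 fold change of the 9 was 0.35, beside 0.05 over all tested genes. C5ar1 differed by 0.79 ± 0.16 (SE) on the log2 scale (unadjusted p = 0.00162, limma adjusted p = 0.166) and C1qa by 0.93 ± 0.40 (limma adjusted p = 0.249). C1qc differed by 0.41 ± 0.17 (limma adjusted p = 0.239) and C1qb by 0.19 ± 0.11 (limma adjusted p = 0.325).

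C3 was the one gene with a negative difference, -0.45 ± 0.30 (SE) on the log2 scale (limma adjusted p = 0.377), which turned to 0.04 (limma adjusted p = 0.922) without acupuncture replicate 2. The other 4, C4b, Cfb, Serping1 and C3ar1, differed by 0.48 ± 0.24, 0.35 ± 0.22, 0.28 ± 0.21 and 0.15 ± 0.20. The count of 0 rested on both ICH libraries. Set against ICH replicate 2 alone, the log2 differences included 1.56 (C1qa), 0.83 (C4b), 0.73 (C5ar1), 0.65 (Cfb) and 0.60 (C1qc), while C3ar1 turned to -0.16. Such a fit assumes that the single library varies like the other groups, so its calls are not read here. Set against ICH replicate 1 alone, C1qa differed by 0.29.

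The order of the levels differed little between groups. In acupuncture it ran C1qa, C1qb, C1qc, C4b, Serping1, C3, C3ar1, C5ar1 and Cfb, where the ranges of Serping1 and C3, of C3 and C3ar1, and of C3ar1 and C5ar1 overlapped. In ICH C1qb (126 ± 12.7 FPKM, SD, n = 2) stood beside C1qa (124 ± 73.2 FPKM, SD, n = 2), which overlapped, and C3 came before Serping1. In sham C1qa was again first at 27.9 ± 6.21 FPKM (SD, n = 3), overlapping C1qb. C3 was next to last in sham at 0.274 ± 0.0853 FPKM (SD, n = 3), overlapping C5ar1, whereas in ICH it ranked above Serping1 at 13.8 ± 2.37 FPKM (SD, n = 2).

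Likeness of pattern was measured as the largest gap in log2(FPKM + 1) above the sham mean over the 7 libraries, among 12063 other tested genes with an approved symbol. C1qb was nearest to Cst7 (gap 0.22), Apoc2 (0.23) and Mpeg1 (0.24), and C1qc to A2m (0.28), Tlr2 (0.33) and Mpeg1 (0.34). C1qa, with its low value in ICH replicate 2, was nearest to Tspo (0.28), S100a6 (0.35) and Cyba (0.47). C3ar1 was nearest to Cst7 (0.21), Lgals9 (0.23) and Ifitm2 (0.27), and C5ar1 to Ccl3 (0.20), Ncf1 (0.23) and Ctsz (0.31). For C4b the nearest were Bst2 (0.30), Tlr2 (0.47) and Lilrb4a (0.47), for Serping1 Pik3ap1, Bcl3 and Slamf9 (0.28 each), and for Cfb Dhrs1 (0.15), Glipr2 (0.19) and Ctsd (0.24). C3 had no close neighbour: its nearest was Ccl2 with a gap of 0.63, then Arg1 (0.88) and Gpr84 (1.07). The 7 libraries are few, so these gaps only describe them.

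Of 48 other complement genes listed by role, 41 were in the table and 20 passed the filter. In acupuncture against sham 8 of the 20 were called higher and none lower, beside 8.47% and 3.22% of all tested genes, with a median log2 fold change of 0.25, beside 0.04. In ICH against sham 7 were called higher and none lower, beside 4.95% and 0.724%, also with a median of 0.25, beside -0.01. All 7 were among the 8. The C1 proteases were among them: C1ra had 5.67 and 4.49 FPKM in acupuncture, 3.87 and 3.33 FPKM in ICH, and 0.435, 0.779 and 0.549 FPKM in sham. C1ra changed by 1.94 ± 0.14 (SE, log2) in acupuncture against sham (limma adjusted p = 0.000363) and 1.54 ± 0.14 in ICH against sham (limma adjusted p = 0.0015). C1s1, the other protease, changed by 1.40 ± 0.22 in acupuncture against sham (limma adjusted p = 0.00807) and by 1.03 ± 0.22 in ICH against sham (limma adjusted p = 0.043). Both passed the filter only through the haemorrhage groups.

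Among the receptors 3 of 4 tested genes were called higher in both comparisons. Itgam and Itgb2 encode the chains of complement receptor CR3, with which phagocytes bind C3 fragments. Itgam had 23.9 and 18.6 FPKM in acupuncture, 19.6 and 21.1 FPKM in ICH, and 3.39, 4.0 and 4.16 FPKM in sham. Itgb2 had 13.7 and 11.1 FPKM in acupuncture, 9.82 and 13.1 FPKM in ICH, and 1.54, 1.29 and 1.49 FPKM in sham. The log2 fold changes against sham were 2.19 (Itgam) and 2.45 (Itgb2) in acupuncture, and 2.14 (Itgam) and 2.34 (Itgb2) in ICH. The haemorrhage groups overlapped for both. Cd93, first described as a C1q receptor, changed by 1.35 ± 0.21 (SE) in acupuncture against sham (limma adjusted p = 0.00772) and by 1.37 ± 0.21 in ICH against sham (limma adjusted p = 0.0121).

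Among the tested regulators, Clu, the gene of clusterin, which binds terminal complexes, was the most abundant complement gene tested and was called higher in both comparisons, at 307 and 239 FPKM in acupuncture, 257 and 323 FPKM in ICH, and 178, 173 and 179.5 FPKM in sham. It changed by 0.61 ± 0.15 in acupuncture against sham (limma adjusted p = 0.0471) and by 0.70 ± 0.15 in ICH against sham (limma adjusted p = 0.0474), both close to the threshold. The membrane-bound regulators Cd55, Cd46 and Cd59a were among the genes not called.

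Cfp encodes properdin, which stabilises the alternative-pathway enzyme, and is a product of neutrophils and monocytes. It had 12.4 and 13.3 FPKM in acupuncture, 6.91 and 5.93 FPKM in ICH, and 4.31, 4.94 and 3.78 FPKM in sham, with no overlap between the 3 groups. Properdin RNA differed by 1.38 ± 0.12 (SE, log2) in acupuncture against sham (limma adjusted p = 0.000734) and 0.48 ± 0.12 in ICH against sham (limma adjusted p = 0.08). In acupuncture against ICH it was 0.91 ± 0.13 (limma adjusted p = 0.0936). The neutrophil and monocyte marker sums given above were also higher in acupuncture than in ICH, but the markers did not move as a whole. Of 10 monocyte and macrophage markers 4 were higher without overlap and 2 lower, namely Plac8 and Mrc1 at 0.686 and 0.817 of their ICH means, while Ccr2 and Ly6c2 overlapped. Of 7 neutrophil markers 3, S100a8, S100a9 and Retnlg, were higher without overlap and the others overlapped. Over all tested genes 28.8% were higher without overlap in this comparison. The part of these cells in the Cfp level was not tested.

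No terminal pathway gene passed the filter. Of 7 listed, 5 were in the table, all under 1 FPKM in every library. The gene of C5, Hc, whose cleavage product is the ligand of C5ar1, had 0.0933 and 0.0345 FPKM in acupuncture, 0.0921 and 0.064 FPKM in ICH, and 0.0228, 0.0167 and 0.0529 FPKM in sham. The receptor was therefore measured well above the precursor gene of its ligand in this tissue, while the sources used here hold no measure of circulating protein. In acupuncture against ICH none of the 20 other genes was called (limma), and at an unadjusted p under 0.05 there were 2 higher and 2 lower, beside 11.9% of all tested genes higher and 8.21% lower. That none was called also rested on both ICH libraries. Leaving out sham replicate 1 or sham replicate 2 brought the count in ICH against sham to 4, and leaving out acupuncture replicate 1 brought that in acupuncture against sham to 5.

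**Figure D4:**
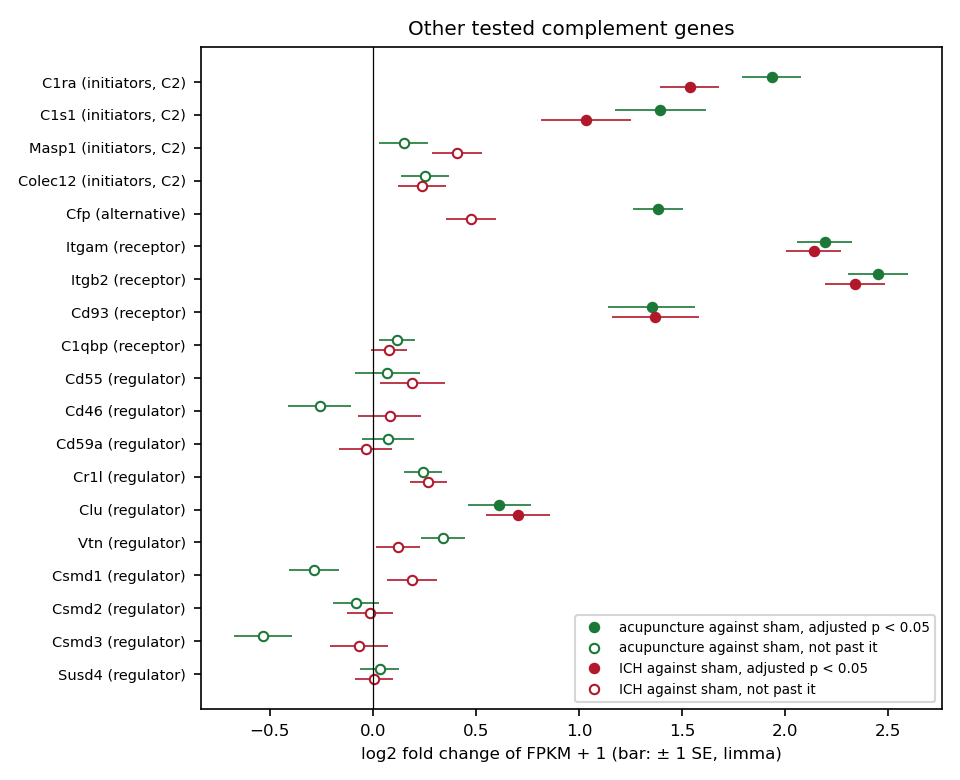
Log2 fold change of FPKM + 1 (x axis) with ± 1 SE for 19 of the 20 other tested complement genes, labelled with their role, in acupuncture against sham and ICH against sham; filled points passed an adjusted p of 0.05. The filled points drawn are 7 in acupuncture and 6 in ICH, all above 0, and Cfp is filled in acupuncture alone.

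The m6A peak lists give, for each group as a whole, the authors' log2 of IP over input at a stretch of transcript. No value per replicate is given for a peak, so its spread within a group cannot be seen and ICH replicate 2 cannot be left out. A peak's span can include introns. The authors' deposited tables held 19 peaks on the 9 genes in acupuncture (of 50105 peaks), 18 in ICH (of 54754) and 16 in sham (of 48251). All 9 genes had a peak in acupuncture and in ICH, and 7 in sham, where the authors' deposited table listed none on C3 and Serping1. The share of all genes with a peak is not given here, so these counts are only described. Sham input means were 0.274 FPKM for C3 and 2.20 FPKM for Serping1. Cfb, C5ar1 and C3ar1, with sham means of 0.0213, 0.325 and 0.563 FPKM, did have sham peaks. The part of the input level in the presence of a peak was not tested. At a log2 IP over input of at least 1, the authors' deposited tables kept 8 of these peaks in acupuncture, 15 in ICH and 11 in sham, beside 58.2% of all peaks in acupuncture, 69.6% in ICH and 54.6% in sham. The median log2 IP over input of the peaks on these genes was 0.95 in acupuncture, 1.43 in ICH and 1.21 in sham, beside 1.12 (acupuncture), 1.24 (ICH) and 1.07 (sham) over all peaks in the authors' deposited tables.

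The peaks on complement genes were often at the end of the transcript. Of the 19 acupuncture peaks 8, of the 18 ICH peaks 8 and of the 16 sham peaks 5 began at the annotated 3′ end of the gene in the authors' deposited tables, beside 19.4% of all acupuncture peaks, 17.6% of ICH peaks and 19.4% of sham peaks. These were peaks on C1qa, C1qb, C1qc, C4b and Cfb in all 3 groups, and on C3, C3ar1 and Serping1 in acupuncture and ICH. At a shared overlap of at least 1 bp, 15 of the 19 acupuncture peaks (78.9%) met an ICH peak and 15 of the 18 ICH peaks (83.3%) met an acupuncture peak, beside 82.6% and 74.6% over the whole lists. Of the acupuncture peaks 10 (52.6%) met a sham peak, and 12 of the 16 sham peaks (75%) met an acupuncture peak, beside 75% and 76.6% over the whole lists. Of the ICH peaks 12 (66.7%) met a sham peak, and 13 of the 16 sham peaks (81.2%) met an ICH peak, beside 71% and 80.2% over the whole lists.

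The receptor genes carried the highest single peak on these genes in each group. The authors labelled each peak as a whole, the main C3ar1 peak as 3′ UTR. A sham peak labelled exon (chr6:122850338-122850737) lay within the acupuncture and ICH spans of that main peak. The main C3ar1 peak had a log2 IP over input of 2.90 in acupuncture (chr6:122848938-122850912, minus strand, GRCm38), 2.67 in ICH (chr6:122848838-122850837) and 2.06 in sham (chr6:122849338-122850312) in the authors' deposited tables. C5ar1 had 2.25 and 0.95 at 2 peaks in acupuncture, and 2.46 and 2.52 at 2 peaks in sham, in the authors' deposited tables. In ICH it had 2.36 at a long peak that overlapped both acupuncture peaks. The sham values come from low input levels, with means of 0.325 FPKM for C5ar1 and 0.563 FPKM for C3ar1. The C3ar1 peak stood in the top 5.16% of the acupuncture list, 7.83% of the ICH list and 14.6% of the sham list, by the authors' deposited tables. In sham the 5′ peak of Cfb that ran into C2 had 2.19, above the main C3ar1 peak, in the authors' deposited table. The C1q genes were nearer to the middle of the lists: the 3′ UTR peak of C1qa had 1.36 in acupuncture, 1.95 in ICH and 1.36 in sham, and that of C1qb 1.42 in acupuncture, 1.61 in ICH and 1.48 in sham, in the authors' deposited tables.

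The authors also deposited tables of differential peaks, which list peaks with a p under 0.05 or none. In ICH against sham the authors' deposited table listed 13 peaks on 7 of the genes, all 13 with a positive difference, beside 78.7% positive among all listed peaks. The median difference was 0.87 on these genes and 0.56 over all listed peaks in the authors' deposited table, so positive was the common direction of the whole table. The largest, in a C3 exon, was a log2 IP over input of 0.48 in ICH and -2.46 in sham in the authors' deposited table, on a gene with at most 0.333 FPKM in the sham input libraries. The 3′ end peak of C4b had 1.92 in ICH and 1.05 in sham, and the main C3ar1 peak 2.60 in ICH and 1.92 in sham, in the authors' deposited table.

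In acupuncture against sham the authors' deposited table listed 9 peaks on 5 of the genes, 4 positive and 5 negative, beside 58.2% positive among all listed peaks. C3ar1 had 2.75 in acupuncture and 1.85 in sham at a peak that overlapped its main peak, in the authors' deposited table. That interval spanned 7144 bp, longer than those listed in the other comparisons. C1qa had 0.682 in acupuncture and 0.996 in sham at its upstream peak, in the authors' deposited table. Cfb had peaks in both directions, one of which ran past the gene into its neighbour C2, with 0.80 in acupuncture and 2.01 in sham in the authors' deposited table. The sham values on Cfb come from a gene listed at or near 0 in the sham input, and the part of the overlapping transcripts in them was not tested.

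In acupuncture against ICH the direction was mostly negative. The authors' deposited table listed 16 peaks on 8 of the genes, 2 positive and 14 negative, beside 18.7% positive among all listed peaks. The median difference was -0.66 on these genes and -0.46 over all listed peaks in the authors' deposited table, so the genes moved with the table. At the 3′ end C1qa had a log2 IP over input of 1.30 in acupuncture and 1.96 in ICH, C4b 1.26 in acupuncture and 1.93 in ICH, and C3 1.44 in acupuncture and 1.81 in ICH, in the authors' deposited table. C1qc had 1.12 in acupuncture and 1.32 in ICH, and C5ar1 0.90 in acupuncture and 1.63 in ICH, in the authors' deposited table.

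C3ar1 carried 2 listed peaks, both labelled 3′ UTR by the authors, that differed in direction. At its main peak (chr6:122848838-122850887) the log2 IP over input was 2.91 in acupuncture and 2.59 in ICH, a difference of 0.32 (the authors' adjusted p = 8.46e-05) in the authors' deposited table. At its 3′ end (chr6:122847138-122847362) it was 0.78 in acupuncture and 1.85 in ICH, a difference of -1.07 (the authors' adjusted p = 0.00073) in the authors' deposited table. The main C3ar1 peak was the one positive difference at an adjusted p under 0.05 on these genes, and the contrast of the 2 peaks was not tested. The other positive difference was on C1qb, 0.08 (the authors' adjusted p = 0.086) in the authors' deposited table. Serping1 had no listed differential peak in any of the 3 tables.

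**Figure D5:**
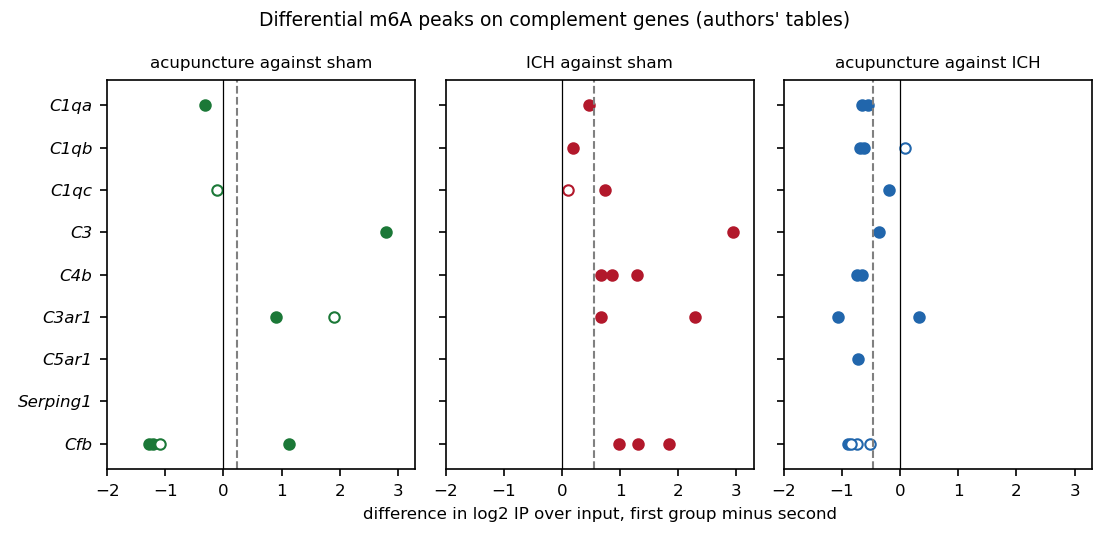
Difference in log2 IP over input of each listed differential peak on the complement genes (x axis, first group minus second), by gene, for acupuncture against sham, ICH against sham and acupuncture against ICH; filled points have an authors' adjusted p under 0.05, and the dashed line is the median of all listed peaks (0.24, 0.56 and -0.46 in that order). All points of ICH against sham lie above 0, and 14 of the 16 points of acupuncture against ICH lie below it.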

How the data were processed

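Input and m6A immunoprecipitation libraries were stranded, per the labels' protocols. The submitters' processing notes list the tools edgeR, StringTie, HOMER, HISAT2 and fastp, with neither version nor role, and the peak caller is not stated. They name the human build GRCh38 (hg38), whereas the files hold mouse genes; of 25252 symbols matched to GRCm38, 96.3% lay within 1000 bp of their annotated place, so coordinates are on GRCm38.

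FPKM per gene and input library was computed by the authors and is named so per the file headers. The columns headed control and EA were matched to the sham and acupuncture samples by elimination, and 2 further columns match no sample and were not used. Whether the samples behind these 2 columns entered the authors' peak lists is not stated, so the peak values and the input FPKM may rest on different samples. The log2 IP over input, its difference between groups, and each p-value and adjusted p-value of a peak are the authors' own, deposited per group and not per sample. FPKM holds no counts, so depth and the precision it gives are unknown.

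Genes reaching a mean FPKM of 1 were tested on log2(FPKM + 1) in limma 3.58.1 (R 4.3.3), with a mean per group over 7 input libraries and a variance trend, and Benjamini-Hochberg adjustment over all 13666 tested genes. The fit was tested on simulated data. Overlap of peaks needed 1 bp on the same strand. The complement genes and all lists were chosen with earlier results of these data known. The text names all 9 genes; of the other complement genes those called, up to 4 per role by smallest p, with Hc and the 3 membrane regulators added after their values were seen, as were the single cell type markers above 0; and per gene the 3 genes of nearest pattern. One tested complement gene is counted but not reported by name here. Complement genes that were not in the table are not analysed here. Replicate numbers were not used as pairs, since the correlation of deviations from the group means was 0.01 and -0.01 (ICH and sham), 0.03 and -0.01 (acupuncture and sham) and 0.09 (acupuncture and ICH). Tables and figures were made with pandas 2.3.3, numpy 2.4.6 and matplotlib 3.10.9 under Python 3.11.15.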

Additional observations from a re-analysis of the deposited data

How the results depend on the processing

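Against sham, the 9 complement genes kept their direction under every alternative (other pseudocounts, filters, scalings and variance models, only the groups compared, a replicate block, and each library left out), save that C3ar1, C5ar1 and Cfb were not tested at a mean of at least 5 FPKM. Of their values in acupuncture against sham 150 of 150 kept the call, and in ICH against sham 142, while 8 lost it, all of them C1qa; beyond the libraries named in the report, C1qa lost it with no filter (limma adjusted p = 0.0815), with only the 2 groups (0.0525) and with the replicate block (0.0772). The smallest acupuncture adjusted p of C1qa was 0.000351 and the largest 0.032. In acupuncture against ICH 143 values kept their side of the threshold, 5 passed it without ICH replicate 1, and 2 turned direction: C3ar1, which ranged from -0.16 without ICH replicate 1 to 0.46 without ICH replicate 2, and C3, which ranged from -0.94 without acupuncture replicate 1 to 0.038 without acupuncture replicate 2. Leaving out 1 library at a time, 9 of the 9 genes were called in acupuncture against sham each time, 8 to 9 when ICH was set against sham, and 0 to 5 when acupuncture was set against ICH. For the other complement genes these ranges were 5 to 11, 4 to 10 and 0 to 5, and for all tested genes 775 to 3197 (main 1598), 392 to 5204 (776) and 2 to 5098 (5). With no filter 4 other complement genes were called in ICH against sham. With a mean of at least 5 FPKM, 4 were called in acupuncture against sham and 2 in ICH against sham, of 7 tested, and 707 and 250 of all genes. Fitting only the 2 groups compared gave 3207 genes in acupuncture against sham and 2 in acupuncture against ICH. The replicate block gave 750 genes in acupuncture against sham, 351 when ICH was set against sham, and 3 when acupuncture was set against ICH. At a log2 IP over input of at least 1, acupuncture peaks on the 9 genes numbered 8 in place of 19. Where no cause is named above, the cause was not tested. Read depth is unknown, so no limit from counting error can be given for the low genes.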
